A study of Mus musculus with 8 samples.

Results

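The genes described here are the Hox genes and members of other developmental homeobox families (Meis, Pbx, Gbx, Dlx, Msx, Lhx, Pax, Nkx and the sine oculis family), as measured by RNA-seq in mouse embryonic stem cells (ESCs). Members were taken by gene symbol alone, with no use of their values. This gave 93 of the 38991 genes measured, 38 of them Hox genes and 55 from the other families. All 93 are annotated as protein coding. The cells were of a single line, Rex1GFPd2 (RGd2), of strain 129, which carries a short-lived GFP reporter of Rex1 (Zfp42), a gene of naive pluripotency. Cells were kept on gelatin in serum-free N2B27 medium, first for 6 passages in 2i and then for 5 passages in 1 of 4 media, and RNA was taken at passage 11. 2i holds CH (CHIR99021, 3 µM), an inhibitor of GSK3 that activates the canonical Wnt pathway, together with PD (PD0325901, 1 µM), an inhibitor of MEK that blocks ERK signalling. The fullest medium, 2i+LIF, also holds the cytokine LIF, which activates Stat3. Each of the other 3 media lacks 1 of these 3 components: 2i lacks LIF, LIF+PD lacks CH, and CH+LIF lacks PD. There were 2 cultures per medium, 8 in all. Nothing in the labels says what separates the 2 cultures of a medium, so the p-values below measure the spread between these cultures, which may be technical.

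Homeobox genes encode transcription factors that bind DNA through a shared helical domain. The Hox genes lie in clusters on separate chromosomes and give cells their position along the body axis: genes at one end of a cluster act in the head and neck, and those at the other end in the trunk and tail. In ESCs most of these genes are held silent by Polycomb, and they are switched on as cells leave pluripotency. Meis and Pbx proteins bind DNA together with Hox proteins. The other families pattern the neural tube, sense organs, limbs, muscle and gut.

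Values are FPKM, the authors' fragment counts scaled by transcript length and library total. Their sum over all genes still differed between cultures, from 715575 in replicate 2 of CH+LIF to 875458 in replicate 1 of 2i+LIF. No rescaling was applied, so levels compared between cultures carry this difference. A mean FPKM above 1 was found for 24 of the 93 genes in 2i+LIF (25.8%), 18 in 2i (19.4%), 18 in LIF+PD (19.4%) and 20 in CH+LIF (21.5%). Over all genes measured the shares were 30.1%, 30.5%, 31.1% and 29.9%. Counted in single cultures, the numbers were 24 and 24 in 2i+LIF, 18 and 20 in 2i, 20 and 19 in LIF+PD, and 19 and 19 in CH+LIF. The 2i+LIF cultures therefore held more of these genes above the level than any other culture, while the other 3 media overlapped. By mean level, 8 Hox genes and 16 others were above 1 in 2i+LIF, 5 and 13 in 2i, 3 and 15 in LIF+PD, and 4 and 16 in CH+LIF. The number of Hox genes was 8 and 9 in the single cultures of 2i+LIF, 4 and 5 in 2i, 3 and 2 in LIF+PD, and 4 and 4 in CH+LIF. No test was made of these counts. The 2i culture of replicate 1 was the shallowest, at 0.499 times the depth of replicate 1 of 2i+LIF, whereas the remaining cultures lay between 0.903 and 1.18 times that depth, and it listed 38 of the 93 genes at 0, within the range of 27 to 42 over the 8 cultures.

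In all 4 media 11 genes had a mean above 1, among them Gbx2, Hoxc13, Lhx6, Meis2, Pbx2, Pbx3, Pbx4, Six4 and Six5. In none of the media did 65 genes reach it. The remaining 17 passed it in some media. Hoxc6, Hoxc10 and Lhx2 did so in 2i+LIF alone, Meis1 and Nkx2-9 in LIF+PD alone, Pax8 in CH+LIF alone, and no gene in 2i alone. Hoxc6, Meis1 and Pax8 lay close to the level: Meis1, a Hox cofactor, was at 0.336 and 0.270 in 2i+LIF, 0.804 and 1.07 in 2i, 0.728 and 1.37 in LIF+PD and 0.471 and 0.901 in CH+LIF, and Pax8, a paired-box factor of thyroid and kidney, at 1.19 and 0.207 in 2i+LIF, 0.302 and 1.62 in 2i, 0.752 and 1.22 in LIF+PD and 1.34 and 1.29 in CH+LIF. Neither passed the test described next in any comparison. Of the 93 genes, 61 were below 1 in each of the 8 cultures and 9 were listed at 0 in every one (Hoxa6, Hoxb3, Hoxb5, Hoxb6, Lhx4, Nkx2-6, Nkx3-2, Pax4 and Six6). An exact 0 in these files can be a failed estimate, since 7 genes listed at 0 in some culture had an FPKM of at least 10 in 6 or more of the others.

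Differences between media were tested with limma on log2(FPKM + 1), on the 12927 genes that reached an FPKM of 1 in 2 or more cultures, at an adjusted p below 0.05. Changes of low genes are understated by the added 1. Of the 93 genes, 28 passed this filter and could be tested, 7 of them Hox genes. Hoxc10 passed through 2i+LIF alone and Nkx2-9 through LIF+PD alone, so their difference from the other media was in part set by the filter. Compared with 2i+LIF, 13 of the 28 changed in 2i (4 higher and 9 lower), 13 in LIF+PD (5 higher and 8 lower) and 12 in CH+LIF (3 higher and 9 lower). Among all genes tested, 18.6% changed in 2i (9.77% higher and 8.86% lower), 25.2% in LIF+PD (14.8% higher and 10.4% lower) and 25.4% in CH+LIF (12.2% higher and 13.3% lower), against 46.4%, 46.4% and 42.9% of the 28 genes in either direction. The median absolute difference of the 28 was 0.64, 0.63 and 0.44 on the log2 scale in the 3 comparisons, beside 0.24, 0.27 and 0.28 for all genes tested. The signed medians of the 28 were -0.02, -0.01 and -0.33, beside 0.04, 0.03 and 0.01. These shares and medians describe genes that passed the filter and were not tested as a set. In the bulk RNA of a culture, fewer cells expressing a gene and less RNA per cell cannot be told apart.

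**Figure D1:**
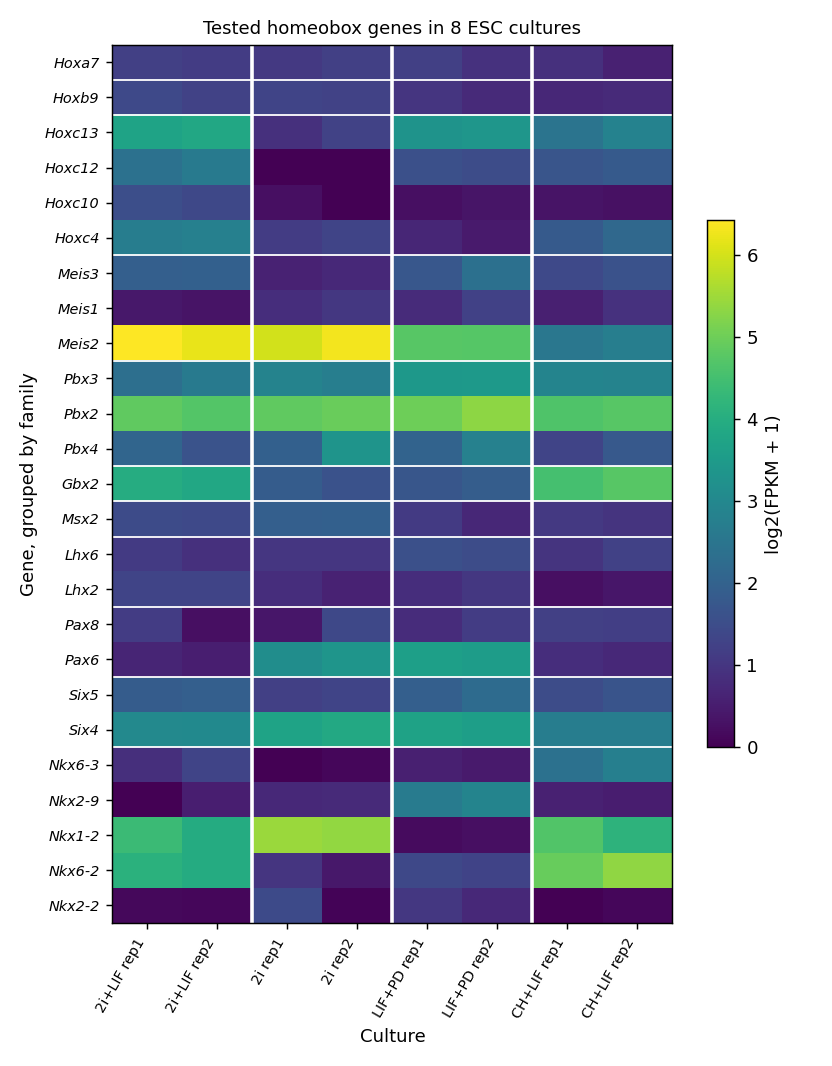
log2(FPKM + 1) of 25 of the 28 genes that could be tested (rows, grouped by family and ordered by start position) in each of the 8 cultures (columns). Meis2 was brightest in 2i+LIF and 2i, Nkx1-2 was dark in LIF+PD alone, Gbx2 and Nkx6-2 were bright in 2i+LIF and CH+LIF, and Pax6 in 2i and LIF+PD.

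The promoters of 5 of these genes are shown because the media moved them in different ways. They were chosen after their values had been seen. Each is the 250 bases before a RefSeq transcription start on GRCm38.p6, read 5′ to 3′ on the gene's strand, with CG dinucleotides in capitals. They lie at chr1:89931177-89931426 (Gbx2, minus strand), chr7:139582798-139583047 (Nkx6-2, minus strand), chr7:132599638-132599887 (Nkx1-2, minus strand), chr2:116064620-116064869 (Meis2, minus strand) and chr15:103034145-103034394 (Hoxc4, plus strand).
Gbx2: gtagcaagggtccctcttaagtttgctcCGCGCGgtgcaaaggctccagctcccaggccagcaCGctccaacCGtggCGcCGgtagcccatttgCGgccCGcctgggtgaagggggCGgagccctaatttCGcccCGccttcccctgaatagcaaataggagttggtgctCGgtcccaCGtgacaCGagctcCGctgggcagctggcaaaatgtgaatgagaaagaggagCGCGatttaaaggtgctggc
Nkx6-2: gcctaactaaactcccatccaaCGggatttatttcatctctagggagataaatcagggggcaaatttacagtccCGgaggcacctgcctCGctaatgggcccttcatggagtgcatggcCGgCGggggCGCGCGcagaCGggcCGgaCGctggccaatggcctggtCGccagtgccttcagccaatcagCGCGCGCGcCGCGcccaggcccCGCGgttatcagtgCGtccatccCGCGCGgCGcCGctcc
Nkx1-2: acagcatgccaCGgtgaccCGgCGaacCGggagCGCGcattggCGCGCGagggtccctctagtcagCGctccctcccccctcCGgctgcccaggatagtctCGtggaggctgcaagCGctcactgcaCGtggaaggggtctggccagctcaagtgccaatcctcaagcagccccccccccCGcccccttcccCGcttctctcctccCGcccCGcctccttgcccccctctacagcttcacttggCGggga
Meis2: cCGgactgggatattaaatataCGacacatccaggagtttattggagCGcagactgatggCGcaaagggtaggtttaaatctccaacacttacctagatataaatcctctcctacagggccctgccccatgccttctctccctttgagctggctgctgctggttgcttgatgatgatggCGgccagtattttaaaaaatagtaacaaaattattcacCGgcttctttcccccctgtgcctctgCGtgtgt
Hoxc4: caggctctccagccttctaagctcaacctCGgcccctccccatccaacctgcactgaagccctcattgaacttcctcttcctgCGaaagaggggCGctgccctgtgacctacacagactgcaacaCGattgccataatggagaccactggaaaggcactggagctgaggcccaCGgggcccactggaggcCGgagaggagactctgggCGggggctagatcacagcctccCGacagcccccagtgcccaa
The Nkx6-2, Nkx1-2 and Gbx2 promoters hold 26, 19 and 18 CG dinucleotides, and those of Hoxc4 and Meis2 hold 8 and 7. Unmethylated promoters rich in CG are the typical sites of Polycomb binding in ESCs. Of the 72 RefSeq promoters of 62 of the 93 genes, 56.9% had a GC content over 50% and an observed to expected CG ratio over 0.6, compared with 30.8% of all 32851 promoters in the table. The share was 54.2% of the 24 promoters of the genes that could be tested and 58.3% of the 48 promoters of those that could not.

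The same windows were searched on both strands for the core letters bound by the factors downstream of the 3 components. The Stat motif TTCNNNGAA was in 0 of the 24 promoters of tested genes and in 7.02% of all promoters. The TCF/LEF motif CTTTGA was in 1 of the 24, that of Meis2 at 109 bases before the start (ctttga in the sequence above), and in 13.8% of all promoters. The ETS motif CCGGAA was in 5 of the 24 and in 12.03% of all promoters. Those 5 belonged to Meis1, Meis3, Nkx2-9 and Six4, the last with 2 promoters. A match is a run of letters and not a measured site, and these windows hold no distal enhancers.

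Among the Hox genes, the HoxC cluster on chromosome 15 had the highest summed level in 2i+LIF, LIF+PD and CH+LIF, and HoxA had it in 2i. The FPKM of its 9 measured genes summed to 27.7 and 28.8 in 2i+LIF, 2.74 and 3.96 in 2i, 11.8 and 12.4 in LIF+PD, and 9.93 and 12.8 in CH+LIF. The HoxA sum was 5.77 and 4.68 in 2i and 1.69 to 5.04 in the other cultures, and the HoxB and HoxD sums did not pass 4.24. All 9 HoxC genes had their highest mean in 2i+LIF, as did 22 of the 34 Hox genes that were above 0 anywhere, compared with 21.4% of all tested genes and 18.1% of the untested genes above 0. By cluster, the numbers with their highest mean in 2i+LIF were 4 of 10 HoxA genes, 4 of 7 HoxB genes and 5 of 8 HoxD genes. In HoxA, 6 of the 10 had their highest mean in 2i. Most of these are values below 1, so the order of their means rests on low levels.

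Hoxc13 (chr15:102921103-102928814), which acts in hair, nail and tail, had the highest level of any Hox gene, at 12.3 and 13.5 in 2i+LIF, 0.870 and 1.39 in 2i, 8.83 and 9.44 in LIF+PD and 4.54 and 6.25 in CH+LIF. The 4 media did not overlap. In 2i the mean was 11.4-fold below that of 2i+LIF, a difference of -2.72 ± 0.18 SE, adjusted p = 0.000212. In CH+LIF it was 2.39-fold lower, at -1.13 ± 0.18 SE, adjusted p = 0.00547, while in LIF+PD the difference of -0.46 ± 0.18 SE, adjusted p = 0.107 did not pass. Its neighbour Hoxc12 (chr15:102936757-102938609) was at 4.24 and 5.15 in 2i+LIF, 0 and 0 in 2i, 1.95 and 1.804 in LIF+PD and 2.24 and 2.55 in CH+LIF. It was listed at 0 in both 2i cultures, so no fold is given, and it changed in 2i (log2 difference -2.50 ± 0.15 SE, adjusted p = 0.000159), a size that depends on the pseudocount. Against 2i+LIF it also fell in LIF+PD (log2 difference -0.98 ± 0.15 SE, adjusted p = 0.00468), and in CH+LIF (log2 difference -0.74 ± 0.15 SE, adjusted p = 0.0144). The call in CH+LIF was lost without replicate 2 of 2i+LIF or without replicate 1 of CH+LIF.

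At the other end of the cluster, Hoxc4 (chr15:103018936-103036843), a gene of the neck and upper trunk, was at 5.58 and 5.99 in 2i+LIF, 1.21 and 1.51 in 2i, 0.604 and 0.391 in LIF+PD and 2.51 and 3.52 in CH+LIF. Again no 2 media overlapped, but the order of the media was another one: LIF+PD was lowest for Hoxc4 and 2i was lowest for Hoxc12 and Hoxc13. Hoxc4 fell 11.6-fold from 2i+LIF to LIF+PD, with a difference of -2.18 ± 0.18 SE, adjusted p = 0.000393, and 4.25-fold to 2i, with -1.53 ± 0.18 SE, adjusted p = 0.00198. In CH+LIF the fall was 1.92-fold, at -0.77 ± 0.18 SE, adjusted p = 0.0218, and this call was lost without replicate 1 or 2 of 2i+LIF or replicate 1 of CH+LIF, with values scaled to a common sum, and with a pseudocount of 0.1. Between LIF+PD and 2i the sign of the difference separated the genes: Hoxc12 and Hoxc13 were higher in LIF+PD by 1.52 (adjusted p = 0.000673) and 2.26 (adjusted p = 0.000276), and Hoxc4 was lower (log2 difference -0.66 ± 0.18 SE, adjusted p = 0.036), although that last call was lost without any 1 of the 6 cultures of 2i+LIF, 2i and LIF+PD.

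Hoxc10, a posterior gene of the lumbar region, was at 1.93 and 1.62 in 2i+LIF, 0.210 and 0 in 2i, 0.209 and 0.290 in LIF+PD and 0.269 and 0.221 in CH+LIF. Both 2i+LIF cultures were above every other culture, and the differences of -1.33, -1.15 and -1.16 from 2i, LIF+PD and CH+LIF all passed (adjusted p = 0.0036, 0.00492 and 0.0055). Its annotated span overlaps that of Hoxc5 on the same strand, and how reads were divided between the 2 genes is not given. The remaining 5 HoxC genes were too low to test. Hoxc6 reached 1.49 in replicate 1 of 2i+LIF only, with the full set at 1.49 and 0.720 in 2i+LIF, 0.122 and 0.314 in 2i, 0.0606 and 0.336 in LIF+PD and 0.233 and 0 in CH+LIF. Hoxc5, Hoxc8, Hoxc9 and Hoxc11 stayed below 1 everywhere. Hoxc9, for example, was at 0.986 and 0.525 in 2i+LIF, 0.329 and 0.0424 in 2i, 0 and 0.0910 in LIF+PD and 0.0705 and 0 in CH+LIF. The test therefore covers 4 of the 9 genes of the cluster, and Hoxc10 passed its filter through 2i+LIF alone.

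**Figure D2:**
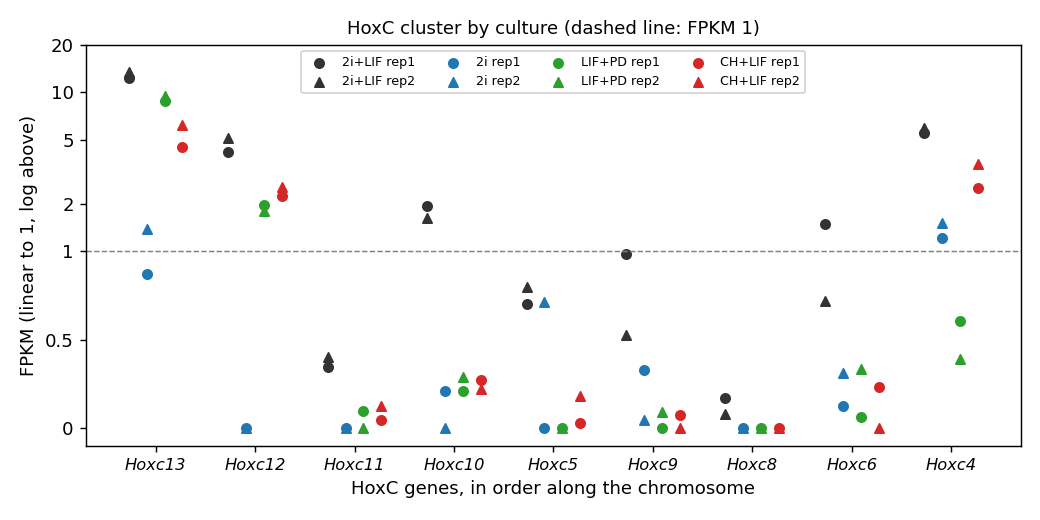
FPKM of the 9 HoxC genes (x axis, in the order of their annotated starts along chromosome 15) in the 8 cultures, with circles for replicate 1 and triangles for replicate 2. The y axis is linear up to 1 and logarithmic above, and the dashed line marks an FPKM of 1. The 2i+LIF cultures (black) lay above the other media for Hoxc13, Hoxc12, Hoxc10 and Hoxc4, and Hoxc12 was listed at 0 in both 2i cultures (blue).

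Outside HoxC, 3 Hox genes could be tested, of which Hoxb9 and Hoxa7 are described. Hoxb9, a posterior gene of the thorax, was at 1.69 and 1.41 in 2i+LIF, 1.48 and 1.42 in 2i, 0.977 and 0.702 in LIF+PD and 0.636 and 0.712 in CH+LIF. Both CH+LIF cultures were below both 2i+LIF cultures (-0.60 ± 0.16 SE, adjusted p = 0.0349), a call that was lost without either 2i+LIF culture or either CH+LIF culture. Its call between CH+LIF and 2i (adjusted p = 0.0494) was lost under 16 of 19 alternatives. Hoxa7, a trunk gene, was at 1.33 and 1.22 in 2i+LIF, 1.09 and 1.33 in 2i, 1.33 and 0.876 in LIF+PD and 0.848 and 0.501 in CH+LIF. Both CH+LIF cultures were below the other 6, which overlapped, and no comparison passed.

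The untested Hox genes were low throughout. In HoxA the highest of 9 was Hoxa10, at 0.852 in its highest culture, and in HoxB the highest of 9 was Hoxb13, at 0.980. None of the 8 HoxD genes measured could be tested, and Hoxd4 was not among the genes found by symbol. Hoxd8 was at 0.508 and 1.36 in 2i+LIF, 0.115 and 0.114 in 2i, 0.770 and 0.127 in LIF+PD and 0 and 0 in CH+LIF, and Hoxd9 at 0.721 and 1.11 in 2i+LIF, 0.181 and 0.0465 in 2i, 0.315 and 0.599 in LIF+PD and 0 and 0 in CH+LIF. Both passed 1 in replicate 2 of 2i+LIF alone, and both were listed at 0 in the 2 CH+LIF cultures. The 8 HoxD genes together summed to 2.96 and 4.24 in 2i+LIF, 0.577 and 0.569 in 2i, 2.29 and 1.80 in LIF+PD, and 0.302 and 0.753 in CH+LIF. Of the 7 Hox genes tested, 0 rose from 2i+LIF in each of the 3 comparisons, and 4, 4 and 5 fell in 2i, LIF+PD and CH+LIF, where 8.86%, 10.4% and 13.3% of all tested genes fell. Hoxc10 is among those that fell in each, and its direction was set by the filter. These comparisons share the 2i+LIF cultures.

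Among the Hox cofactors, the 4 Pbx genes summed to between 34.3 and 70.1 FPKM in the 8 cultures, above the sum of each Hox cluster, and the 3 Meis genes to between 7.02 and 88.0, which in CH+LIF was below the HoxC sum. Meis2 (chr2:115863064-116065839), which forms complexes with Pbx and Hox proteins, had the highest FPKM of the 93 genes, at 84.9 and 72.6 in 2i+LIF, 62.2 and 78.5 in 2i, 25.9 and 25.6 in LIF+PD and 4.86 and 5.76 in CH+LIF. CH+LIF was lowest, LIF+PD lay between, and the cultures of 2i and 2i+LIF overlapped. From 2i+LIF the mean fell 14.8-fold in CH+LIF (log2 difference -3.66 ± 0.14 SE, adjusted p = 7.07e-05), and 3.06-fold in LIF+PD (log2 difference -1.57 ± 0.14 SE, adjusted p = 0.000509). In 2i the difference was -0.17 with a 95% confidence interval of -0.50 to 0.16. CH+LIF was also 4.85-fold below LIF+PD (log2 difference -2.09 ± 0.14 SE, adjusted p = 0.000137).

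Pbx3 was at 4.05 and 5.27 in 2i+LIF, 6.36 and 5.76 in 2i, 9.77 and 9.98 in LIF+PD and 6.42 and 6.33 in CH+LIF, highest in both LIF+PD cultures, and rose there (log2 difference 0.95 ± 0.14 SE, adjusted p = 0.00323). Pbx2, the most even of the cofactors, was at 28.0 and 25.02 in 2i+LIF, 28.0 and 29.9 in 2i, 30.9 and 39.0 in LIF+PD and 24.3 and 25.95 in CH+LIF. None of its differences from 2i+LIF passed, and in 2i the difference was 0.12 with a 95% confidence interval of -0.17 to 0.42. Between CH+LIF and LIF+PD it differed (log2 difference -0.45 ± 0.13 SE, adjusted p = 0.0325), a call lost under 6 of 19 alternatives. Pbx4 was at 3.25 and 2.15 in 2i+LIF, 2.89 and 8.98 in 2i, 3.13 and 6.07 in LIF+PD and 1.496 and 2.47 in CH+LIF, with replicate 2 of 2i far from replicate 1, and did not pass in any comparison. Meis3 was at 2.82 and 2.94 in 2i+LIF, 0.518 and 0.681 in 2i, 2.33 and 4.19 in LIF+PD and 1.69 and 2.08 in CH+LIF. It was lowest in 2i (log2 difference -1.28 ± 0.23 SE, adjusted p = 0.00926) against 2i+LIF, and that call was lost without either 2i+LIF culture.

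Of the other homeobox genes of the same structural class as Meis and Pbx (the TALE class, with Tgif, Pknox and Irx genes), 7 of 11 could be tested. Against 2i+LIF, 0 rose and 1 fell in 2i, 3 rose and 1 fell in LIF+PD, and 0 rose and 1 fell in CH+LIF. As shares of the 7 these were 14.3%, 57.1% and 14.3%, beside 18.6%, 25.2% and 25.4% of all tested genes. The one that fell in both 2i and CH+LIF was Pknox2, another Pbx partner, at 5.13 and 5.25 in 2i+LIF, 1.33 and 0.563 in 2i, 9.72 and 9.36 in LIF+PD and 1.70 and 2.36 in CH+LIF.

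Gbx2 (chr1:89927962-89933290) sets the boundary between midbrain and hindbrain and is also known as a factor that promotes self-renewal downstream of LIF and Stat3. Its FPKM was 14.9 and 13.5 in 2i+LIF, 2.65 and 2.09 in 2i, 2.27 and 2.73 in LIF+PD and 21.9 and 25.8 in CH+LIF. The media fell into a high pair, CH+LIF and 2i+LIF, and a low pair, 2i and LIF+PD. From 2i+LIF the mean fell 5.97-fold in 2i (log2 difference -2.17 ± 0.15 SE, adjusted p = 0.000229), and 5.66-fold in LIF+PD (log2 difference -2.12 ± 0.15 SE, adjusted p = 0.000221). It rose 1.69-fold in CH+LIF (log2 difference 0.71 ± 0.15 SE, adjusted p = 0.014), a call lost without either 2i+LIF culture or replicate 2 of CH+LIF. Between the 2 low media the difference was 0.06 with a 95% confidence interval of -0.29 to 0.40. The levels were thus low both in the medium that lacks LIF and in one that holds it, LIF+PD. An opposite-strand gene, D130058E05Rik, overlaps 1629 bases of Gbx2 and was at 6.51 and 5.59 in 2i+LIF, 2.00 and 2.45 in 2i, 2.45 and 2.46 in LIF+PD and 6.71 and 10.4 in CH+LIF, high and low in the same media. Gbx1 did not pass 0.236.

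The NK genes held the largest difference among the 28 tested genes, that of Nkx1-2 below. Nkx6-2 (chr7:139579377-139582797), a repressor of the ventral neural tube and of myelinating glia, was at 16.3 and 14.4 in 2i+LIF, 0.979 and 0.337 in 2i, 1.63 and 1.44 in LIF+PD and 29.4 and 39.9 in CH+LIF. It had the same high and low pairs of media as Gbx2, with wider gaps. From 2i+LIF it fell 23.4-fold in 2i (log2 difference -3.33 ± 0.22 SE, adjusted p = 0.000216), and 10.005-fold in LIF+PD (log2 difference -2.69 ± 0.22 SE, adjusted p = 0.000393). It rose 2.26-fold in CH+LIF (log2 difference 1.11 ± 0.22 SE, adjusted p = 0.0124), which was lost without replicate 2 of 2i+LIF or of CH+LIF and with a pseudocount of 0.1. Between CH+LIF and 2i the means differed 52.7-fold (log2 difference 4.44 ± 0.22 SE, adjusted p = 6.17e-05). Nkx6-3, a gene of the stomach and hindbrain, was lower but had the same order of media, at 0.834 and 1.48 in 2i+LIF, 0 and 0.0907 in 2i, 0.482 and 0.389 in LIF+PD and 4.29 and 5.79 in CH+LIF. It rose 4.35-fold in CH+LIF (log2 difference 1.49 ± 0.21 SE, adjusted p = 0.00385), and its mean of 0.05 in 2i was below that of every other medium (-1.03 ± 0.21 SE, adjusted p = 0.0171 against 2i+LIF), a call lost without replicate 2 of 2i+LIF or replicate 1 of 2i, with a pseudocount of 5, and with only the 2 media fitted.

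Nkx1-2 (chr7:132594878-132599637), a marker of the caudal epiblast from which the trunk grows, was at 19.8 and 14.5 in 2i+LIF, 43.1 and 40.6 in 2i, 0.145 and 0.193 in LIF+PD and 24.7 and 16.8 in CH+LIF. In both LIF+PD cultures, the medium that lacks CH, it was below 0.2, and in every other culture it was above 14. Its mean in LIF+PD was 101-fold below that of 2i+LIF (log2 difference -3.94 ± 0.20 SE, adjusted p = 7.71e-05), and 247-fold below that of 2i (log2 difference -5.19 ± 0.20 SE, adjusted p = 2.52e-05). In 2i it was 2.44-fold above 2i+LIF (log2 difference 1.26 ± 0.20 SE, adjusted p = 0.00677), and in CH+LIF the difference from 2i+LIF was 0.26 with a 95% confidence interval of -0.22 to 0.74. The Nkx1-2 span lies wholly inside that of Fgfr2 on the same strand, at 4.82 and 3.64 in 2i+LIF, 8.90 and 14.3 in 2i, 34.2 and 42.1 in LIF+PD and 0.903 and 0.684 in CH+LIF. In LIF+PD the host gene rose from 2i+LIF (2.91 ± 0.23 SE, adjusted p = 0.000343) where Nkx1-2 fell, and in 2i both rose (1.24 ± 0.23 SE, adjusted p = 0.0114 for Fgfr2). An opposite-strand gene, Gm16764, overlaps 2251 bases of it, moved with it and was listed at 0 in both LIF+PD cultures, with 16.2 and 9.14 in 2i+LIF, 22.7 and 25.8 in 2i and 11.5 and 7.12 in CH+LIF. The authors counted reads by strand for their own test, but whether the FPKM values used it is not given, and if not, reads of the pair cannot be told apart.

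Nkx2-9, a gene of the floor of the neural tube, had the reverse pattern, at 0 and 0.463 in 2i+LIF, 0.677 and 0.698 in 2i, 5.40 and 6.46 in LIF+PD and 0.508 and 0.426 in CH+LIF. LIF+PD was the only medium above 1, at 8.62-fold the mean of 2i (log2 difference 2.03 ± 0.21 SE, adjusted p = 0.000801), and Nkx2-9 rose there from 2i+LIF (log2 difference 2.51 ± 0.21 SE, adjusted p = 0.000448). Nkx2-9 passed the filter through LIF+PD alone, so the direction of these differences was set by the filter, and their p-values are no separate support for it. Nkx2-2 was at 0.0932 and 0.0850 in 2i+LIF, 1.71 and 0.0481 in 2i, 1.07 and 0.684 in LIF+PD and 0 and 0.0788 in CH+LIF. It passed the filter through 1 culture each of 2i and LIF+PD, its 2i cultures differed more from each other than the media did, and it did not pass in any comparison. The other 9 NK genes could not be tested, with Nkx2-5 highest at 0.676.

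**Figure D3:**
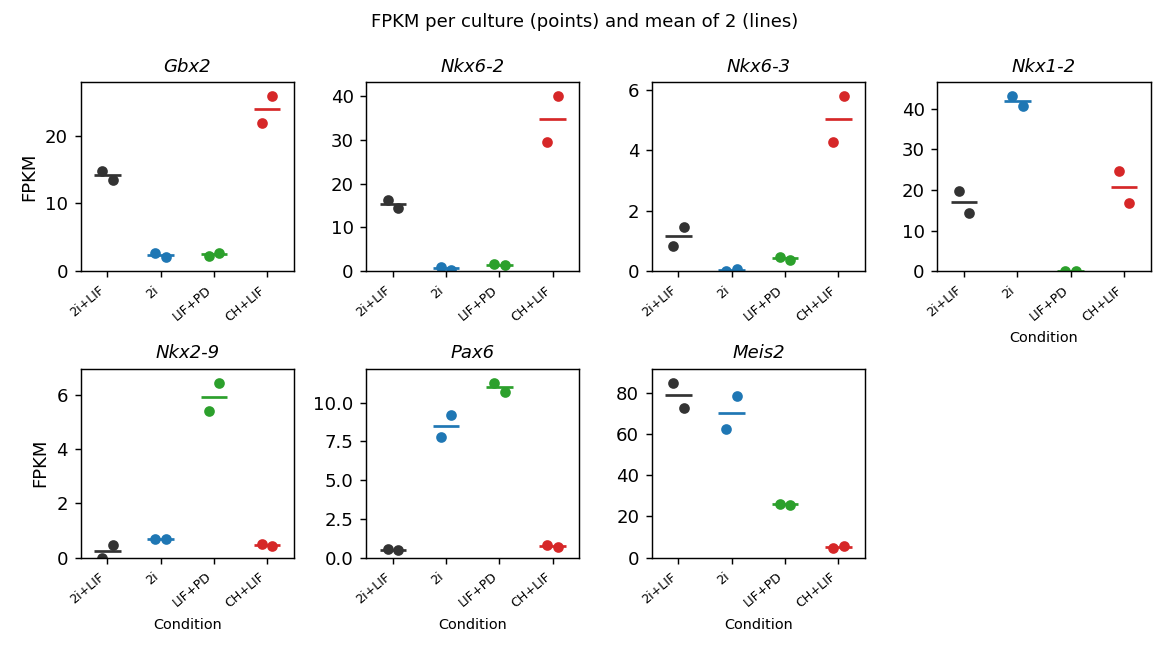
FPKM of 7 genes in each of the 8 cultures (points) with the mean of the 2 cultures of a medium (lines), each panel on its own axis from 0. Gbx2, Nkx6-2 and Nkx6-3 were highest in CH+LIF, Nkx1-2 was near 0 in LIF+PD alone, Nkx2-9 was high in LIF+PD alone, Pax6 was high in 2i and LIF+PD, and Meis2 was lowest in CH+LIF.

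Pax6, a master gene of the eye and of the neural plate, was at 0.577 and 0.459 in 2i+LIF, 7.81 and 9.20 in 2i, 11.3 and 10.7 in LIF+PD and 0.805 and 0.660 in CH+LIF. Its 2 high media, 2i and LIF+PD, were the 2 low media of Gbx2. From 2i+LIF it rose 16.4-fold in 2i (log2 difference 2.64 ± 0.14 SE, adjusted p = 9.67e-05), and 21.2-fold in LIF+PD (log2 difference 2.98 ± 0.14 SE, adjusted p = 5.98e-05), and in CH+LIF the difference was 0.19 with a 95% confidence interval of -0.14 to 0.52. Pax6 is also in the list of neural markers, whose summed FPKM was 7.60 and 6.67 in 2i+LIF, 11.4 and 15.8 in 2i, 24.4 and 23.0 in LIF+PD, and 6.66 and 7.47 in CH+LIF. Without Pax6 itself the sum was 7.02 and 6.21 in 2i+LIF, 3.61 and 6.59 in 2i, 13.1 and 12.3 in LIF+PD and 5.85 and 6.81 in CH+LIF. Of the 7 markers found 4 could be tested. Besides Pax6, Nes rose in LIF+PD from 2i+LIF (0.62 ± 0.14 SE, adjusted p = 0.0176) and fell in CH+LIF (-1.18 ± 0.14 SE, adjusted p = 0.00186). Sox1 was higher than in 2i both in LIF+PD (0.97 ± 0.23 SE, adjusted p = 0.021) and in CH+LIF. Its levels were 0.557 and 0.631 in 2i+LIF, 0 and 0.0595 in 2i, 0.748 and 1.34 in LIF+PD and 1.04 and 1.83 in CH+LIF. Sox1 thus did not follow Pax6, being lowest in 2i, where Pax6 was high. Dcx and Neurog2 were below 1 in every culture. The part of such cells in the Pax6 levels was not tested. Pax2 passed 1 in replicate 1 of LIF+PD alone, at 0.0308 and 0.0562 in 2i+LIF, 0 and 0.111 in 2i, 1.05 and 0.171 in LIF+PD and 0.0925 and 0 in CH+LIF.

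Six4, which acts in muscle and sensory placodes, was at 7.07 and 7.24 in 2i+LIF, 12.3 and 13.6 in 2i, 12.02 and 11.1 in LIF+PD and 5.59 and 5.64 in CH+LIF. It rose in 2i (log2 difference 0.77 ± 0.11 SE, adjusted p = 0.00352) and in LIF+PD (log2 difference 0.62 ± 0.11 SE, adjusted p = 0.00634). Six5 was at 2.67 and 2.84 in 2i+LIF, 1.34 and 1.48 in 2i, 2.82 and 3.76 in LIF+PD and 1.799 and 2.15 in CH+LIF, lowest in 2i, where its difference from 2i+LIF (adjusted p = 0.0354) was lost under 9 of 19 alternatives. Lhx2, a gene of eye and forebrain, was at 1.51 and 1.497 in 2i+LIF, 0.800 and 0.540 in 2i, 0.790 and 1.06 in LIF+PD and 0.205 and 0.321 in CH+LIF, and fell in CH+LIF (log2 difference -0.99 ± 0.18 SE, adjusted p = 0.00806), which was lost without replicate 1 of CH+LIF. Lhx6, of cortical interneurons, was at 1.13 and 0.870 in 2i+LIF, 1.02 and 1.02 in 2i, 1.95 and 1.82 in LIF+PD and 0.946 and 1.36 in CH+LIF. It did not pass in any comparison. Msx2, a target of BMP signalling, was at 1.78 and 1.69 in 2i+LIF, 2.85 and 2.94 in 2i, 1.14 and 0.631 in LIF+PD and 1.100 and 0.960 in CH+LIF, higher in both 2i cultures than in any other, and fell from 2i to LIF+PD (log2 difference -1.06 ± 0.18 SE, adjusted p = 0.00529) and to CH+LIF (log2 difference -0.94 ± 0.18 SE, adjusted p = 0.0101), the latter lost without replicate 2 of CH+LIF. None of the 6 Dlx genes could be tested, and Dlx3 was the highest of them at 0.527. Lhx9, Msx1 and Six2 were the highest untested genes of their families, at 0.306, 0.670 and 0.676 in their highest cultures.

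**Figure D4:**
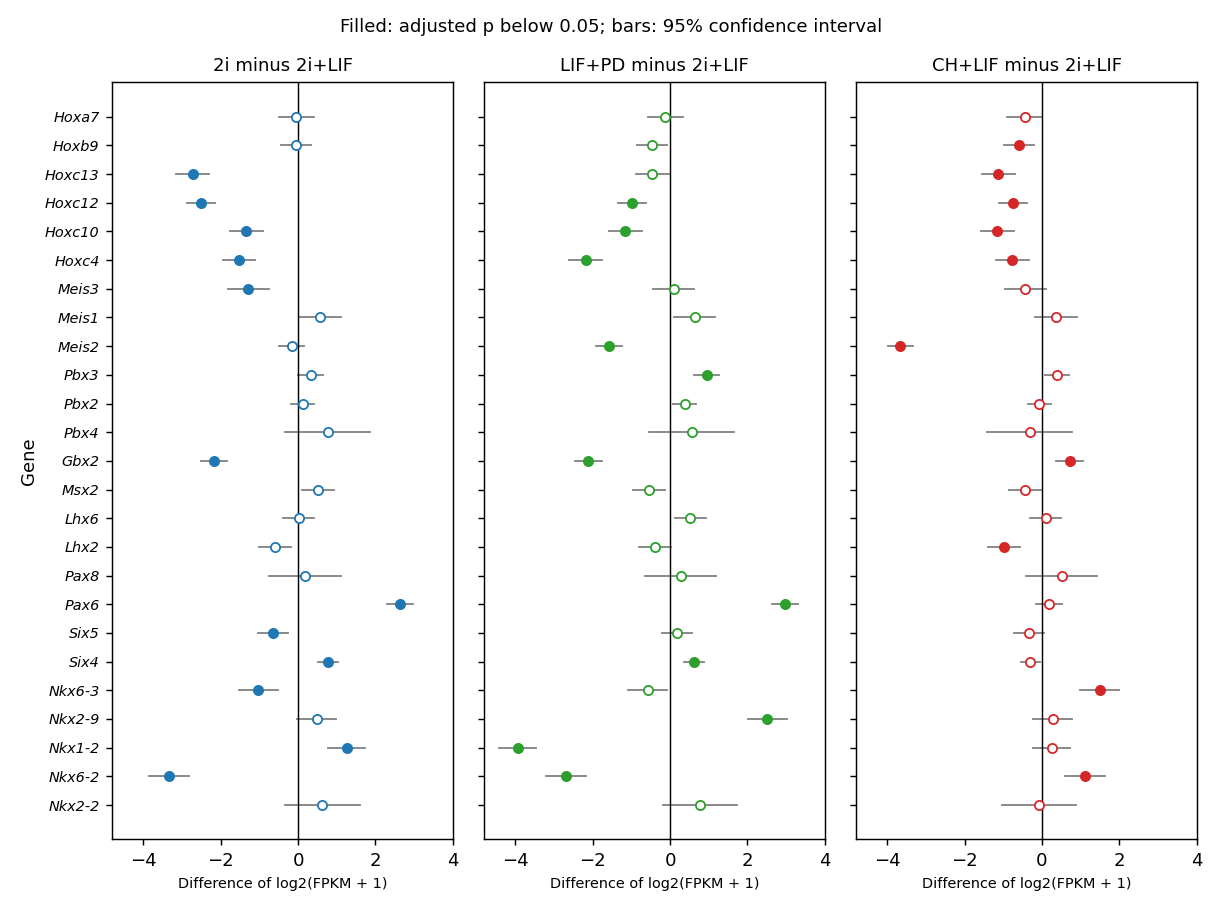
Differences of log2(FPKM + 1) from 2i+LIF for 25 of the 28 genes that could be tested, in 2i, LIF+PD and CH+LIF. Bars are 95% confidence intervals, and filled points have an adjusted p below 0.05. No Hox gene lies to the right of 0 with a filled point, Pax6 is at 2.64 and 2.98 in the first 2 panels, and Meis2 is at -3.66 in the third.

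Pairs of the 3 reduced media were compared in the same fit. Between LIF+PD and 2i, 12 of the 28 genes changed (42.9%), 7 higher and 5 lower in LIF+PD, where 25.1% of all tested genes changed, 14.0% higher and 11.1% lower. Between CH+LIF and 2i the number was 15 (53.6%), 7 higher and 8 lower in CH+LIF, beside 23.9% of all genes, 10.6% higher and 13.3% lower. CH+LIF and LIF+PD, which differ in both inhibitors, gave the largest number, 16 (57.1%), 5 higher and 11 lower in CH+LIF, beside 30.4% of all genes, 12.6% higher and 17.8% lower. The 5 that were higher in CH+LIF were Gbx2, Hoxc4, Nkx1-2, Nkx6-2 and Nkx6-3, and among the 11 lower were Meis2, Nkx2-9, Pax6, Pbx2, Pbx3 and Six4. Over all 6 comparisons 22 of the 28 changed at least once, and Hoxa7, Lhx6, Meis1, Nkx2-2, Pax8 and Pbx4 never did. The matching share of all tested genes was not counted, so whether 22 of 28 is unusual cannot be told. Leaving out single cultures moved some counts by over 1.5 times. The count of 12 for CH+LIF against 2i+LIF fell by this much without replicate 1 or 2 of 2i+LIF or without replicate 1 of CH+LIF. For CH+LIF against 2i the count of 15 did so without replicate 2 of CH+LIF. Each of these fits left 1 culture in a medium, and the calls over all tested genes fell in them as well. When values were scaled to a common sum, the median difference of all genes rose by 0.12 (LIF+PD against 2i+LIF), 0.17 (CH+LIF against 2i+LIF) and 0.12 (CH+LIF against 2i), and no call among the 28 genes turned its direction. The calls over all genes became more often higher under that scaling, with 2601 of 3477 higher beside 1913 of 3263 as reported for LIF+PD against 2i+LIF, 2898 of 3915 beside 1573 of 3286 for CH+LIF against 2i+LIF, and 2051 of 3207 beside 1374 of 3089 for CH+LIF against 2i.

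Factors that act upstream of the Hox clusters were also measured. Cdx genes and retinoic acid are the known activators of Hox genes in the early embryo. In a list of 18 such genes 11 could be tested. Against 2i+LIF, 3 rose and 2 fell in 2i, 5 rose and 3 fell in LIF+PD, and 4 rose and 3 fell in CH+LIF. These are 45.5%, 72.7% and 63.6% of the 11, beside 18.6%, 25.2% and 25.4% of all tested genes. Cdx1, a direct Wnt target, was at 24.1 and 16.5 in 2i+LIF, 15.4 and 8.83 in 2i, 0.115 and 0.128 in LIF+PD and 36.0 and 34.2 in CH+LIF, and Cdx2 at 10.2 and 7.91 in 2i+LIF, 12.2 and 10.6 in 2i, 0.0433 and 0.0960 in LIF+PD and 1.90 and 0.733 in CH+LIF. Both were below 0.2 in the LIF+PD cultures, like Nkx1-2, with differences from 2i+LIF of -4.23 ± 0.26 SE, adjusted p = 0.00014 for Cdx1 and -3.23 ± 0.25 SE, adjusted p = 0.000336 for Cdx2. Cdx2 was also lower in CH+LIF (log2 difference -2.16 ± 0.25 SE, adjusted p = 0.00193). The caudal gene T (Brachyury), of the mesendoderm marker list, had the same low medium, at 4.86 and 3.64 in 2i+LIF, 15.4 and 8.24 in 2i, 0.161 and 0.210 in LIF+PD and 36.3 and 18.5 in CH+LIF. Aldh1a2, which makes retinoic acid, was highest in 2i+LIF, at 4.03 and 3.79 in 2i+LIF, 0.867 and 1.03 in 2i, 1.25 and 1.34 in LIF+PD and 2.19 and 1.98 in CH+LIF, and fell in all 3 media, with differences of -1.33 ± 0.14 SE, adjusted p = 0.00132 in 2i, -1.09 ± 0.14 SE, adjusted p = 0.00215 in LIF+PD and -0.67 ± 0.14 SE, adjusted p = 0.0154 in CH+LIF. The 4 tested HoxC genes were likewise highest in 2i+LIF.

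Of the 31 Polycomb genes listed, all of which could be tested, 7 rose and 5 fell in 2i, 7 rose and 4 fell in LIF+PD, and 5 rose and 8 fell in CH+LIF. That is 38.7%, 35.5% and 41.9% of them, beside 18.6%, 25.2% and 25.4% of all tested genes. Cbx8, a subunit that reads the Polycomb mark, fell in both 2i and CH+LIF, at 9.12 and 8.78 in 2i+LIF, 1.66 and 1.13 in 2i, 6.88 and 10.4 in LIF+PD and 0.473 and 0.0670 in CH+LIF. The 13 tested genes of the opposing Trithorax group and the H3K27 demethylases had 1 that rose and 1 that fell in 2i, and 3 that rose and 0 that fell in each of the others, which is 15.4%, 23.1% and 23.1% of them. None of 15 listed noncoding RNAs beside the 93 genes, Hotair of the HoxC cluster among them, reached 1 in any culture. Of 36 further entries matched by the start of their name, 32 were listed at 0 in every culture and 4 passed 1: HOTAIRM1_1 at 154.9 in replicate 1 of 2i, HOTAIRM1_5 at 27.6 in replicate 2 of 2i and 22.9 in replicate 1 of CH+LIF, HOXA11-AS1_6 at 7.76 in replicate 1 of 2i+LIF and Six3os1_2 at 2.755 in replicate 1 of LIF+PD. Each was at 0 in its other cultures, and the tested one, HOTAIRM1_5, did not pass. The remaining homeobox genes outside the families were counted too, and 17 of 63 could be tested. Against 2i+LIF, 4 rose and 7 fell in 2i, 5 rose and 4 fell in LIF+PD, and 1 rose and 6 fell in CH+LIF. Their shares were 64.7%, 52.9% and 41.2%, beside 18.6%, 25.2% and 25.4% of all tested genes. The 28 genes stood at 46.4%, 46.4% and 42.9%, so frequent change was not particular to them. Otx2, a factor of the forebrain and of the exit from naive pluripotency, and in the embryo a counterpart of Gbx2 at the boundary between midbrain and hindbrain, was at 2.44 and 1.799 in 2i+LIF, 13.2 and 16.4 in 2i, 50.3 and 49.2 in LIF+PD and 2.15 and 2.11 in CH+LIF. It was high in both media where Gbx2 was low, with differences from 2i+LIF of 2.34 ± 0.15 SE, adjusted p = 0.000169 in 2i and 4.03 ± 0.15 SE, adjusted p = 2.27e-05 in LIF+PD. Tlx2, a gene of neural crest derivatives, was at 8.97 and 8.68 in 2i+LIF, 0 and 0.141 in 2i, 0.341 and 0.303 in LIF+PD and 0.881 and 0.749 in CH+LIF, high in 2i+LIF alone.

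The labelled cell type was checked against its markers. All 9 naive pluripotency markers could be tested, and their summed FPKM lay between 3010 and 3971 in the 8 cultures, of which Pou5f1 made up 1625 to 2269. Against 2i+LIF, 5 of the 9 fell in 2i (Dppa3, Esrrb, Fgf4, Klf4 and Tfcp2l1), 4 fell and 1 rose in LIF+PD, and 4 fell in CH+LIF. The changed shares of the 9 were 55.6%, 55.6% and 44.4%, beside 18.6%, 25.2% and 25.4% of all tested genes. Among the other lists, the mesendoderm markers Foxa2, Gata6, Mixl1 and Sox17 and the trophectoderm markers Elf5 and Hand1 were below 1 in every culture. Others moved: in LIF+PD Gata3 (3.02 ± 0.54 SE, adjusted p = 0.00758), Krt18 (1.64 ± 0.19 SE, adjusted p = 0.00137) and Tfap2c (1.00 ± 0.15 SE, adjusted p = 0.00377) rose from 2i+LIF. Cdx2, of the same trophectoderm list, fell there from 10.2 and 7.91 to 0.0433 and 0.0960. In CH+LIF Eomes rose (2.04 ± 0.26 SE, adjusted p = 0.00249) to 9.98 and 8.85, and T rose too. Gsc, of the same mesendoderm list, fell in CH+LIF from 7.71 and 6.26 to 0.654 and 0.499. The mesendoderm list summed to 16.2 and 13.7 in 2i+LIF, 24.9 and 13.3 in 2i, 10.5 and 10.7 in LIF+PD, and 48.5 and 29.4 in CH+LIF, where T contributed 36.3 and 18.5. The trophectoderm list, which includes Cdx2, summed to between 21.6 and 78.9, and the fibroblast list to between 1.79 and 18.4. Whether other cells contributed to the levels of the homeobox genes was not tested. Across all tested genes, cultures of the same medium correlated at r = 0.974 to 0.983 and cultures of different media at 0.930 to 0.954, a description over genes, which are not independent replicates.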

How the data were processed

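RNA-seq was available for 8 cultures of Rex1GFPd2 ESCs, 2 in each of 2i+LIF, 2i, LIF+PD and CH+LIF, grouped by the labels. The authors mapped reads with tophat2 to mm10 with Ensembl 75 and kept unique matches, and the deposited values are FPKM per gene and culture with lower and upper bounds. The submitters' processing notes name TopHat2, Cufflinks and Cuffdiff without versions. The program behind the FPKM and whether it used strand, as the authors' read counting did, are not given in the sources used here, and the libraries are called rRNA-depleted in one source and polyA in another. The authors' own test ran on read counts, which were not used here. FPKM depends on transcript length and library total, and no rescaling was applied.

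Entries that repeated an identifier (22) were summed. Members were taken by symbol, and positions are those of the deposited tables on mm10, counted from 1. Values were transformed as log2(FPKM + 1), and genes that reached an FPKM of 1 in 2 or more cultures were fitted with limma 3.58.1 in R 4.3.3 (4 group means, mean-variance trend, 4 residual degrees of freedom), with Benjamini-Hochberg adjustment over all 12927 genes tested, in each of 6 comparisons, at 0.05. All adjusted p-values in the text come from this fit, which was checked on simulated data. Figures were drawn with matplotlib 3.10.9. Relative depth was estimated from the ratios of low values between cultures, of which 15.2% to 22.8% gathered at a single ratio. Read totals are unknown, so no counting intervals are given. Tested genes were named with their values, except a few items that are not reported here, and untested ones were named by family. Genes of other lists were named where a result turned on them. Members, lists and tests were chosen with earlier results of these data known. RefSeq promoters of GRCm38.p6, which shares the coordinates of mm10, were matched by symbol for 62 of the 93 genes. Alternatives changed the pseudocount, filter, scaling, trend, block and the cultures used.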

Additional observations from a re-analysis of the deposited data

How the results depend on the processing

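Of 81 calls among the tested homeobox genes over the 6 comparisons, 53 held under all 19 alternatives and 0 reversed. The count of genes above an FPKM of 1 moved by over 1.5 times with the level chosen: at an FPKM above 2 it was 15 in 2i+LIF and 13 in CH+LIF, at an FPKM above 0.5 it was 29 in LIF+PD, and with the lower bound above 1 in both cultures it was 10 in 2i. Without a filter, 22 of the 84 homeobox genes above 0 in some culture changed between LIF+PD and 2i+LIF, beside 3076 of all 21125 genes above 0. Leaving out 1 culture in turn gave counts of 10 to 13 for 2i, 11 to 14 for LIF+PD and 6 to 12 for CH+LIF against 2i+LIF, 9 to 12 for LIF+PD and 9 to 14 for CH+LIF against 2i, and 11 to 16 for CH+LIF against LIF+PD. The numbers of genes above 1 in the single cultures left by the same step were 24 to 24 in 2i+LIF, 18 to 20 in 2i, 19 to 20 in LIF+PD and 19 to 19 in CH+LIF. A medium left with 1 culture was assumed to vary like the others. In every comparison that used such a medium, the calls over all tested genes fell as well. The cause of these changes was not tested.

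Deviations of same-numbered cultures from their group means correlated at -0.03 to 0.09, so they shared little. Whether cultures of the same number were derived or handled together is not given in the labels. With the replicate block the counts were 13, 14 and 11 for 2i, LIF+PD and CH+LIF against 2i+LIF, 12 and 14 for LIF+PD and CH+LIF against 2i, and 15 for CH+LIF against LIF+PD. The 65 genes left out by the filter are not covered by the other counts of changed genes. DESeq2 was not run, since it needs counts.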
